A study of Ursus arctos with 12 samples.

Results

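ANKRD1, ANKRD2 and ANKRD23, which encode ankyrin-repeat proteins, and CSRP3 and FHL2, which encode LIM-domain proteins, are 5 genes known to respond to stretch and load in muscle. They were chosen by name, with their seasonal values already known, and 4 of the 5 have a row among the 30249 genes of the count table. All 4 passed the filter of at least 30 reads in total, which left 17290 genes. The samples were biopsies of the vastus lateralis, a thigh muscle, from 6 free-ranging brown bears (Ursus arctos) aged 2 to 3 years. Each bear was biopsied in winter, while hibernating, and again in summer, in its active period, which gave 6 libraries per season. No treatment or genetic change was involved. Both groups are whole biopsies, so a transcript from fewer cells of a type cannot be told apart from less of that transcript per cell.

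Striated muscle senses tension through titin, the giant spring that runs from the Z-disc to the M-band of the sarcomere. ANKRD1 (also called CARP), ANKRD2 (Arpp) and ANKRD23 (DARP) form the muscle ankyrin repeat protein family, which binds the N2A segment of titin in the elastic I-band and can also enter the nucleus and act on transcription. CSRP3, the muscle LIM protein, sits at the Z-disc with telethonin and alpha-actinin and is needed for normal load sensing in the heart. FHL2 is a LIM-only adaptor that also binds titin and many transcription factors and is found in heart, smooth muscle and stromal cells. ANKRD1 is scarce in resting limb muscle and is a well-known target of mechanical load, denervation and injury. ANKRD2 and CSRP3 are typical of slow fibres.

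Between 20191068 and 27283155 reads per library were counted in summer and between 16742406 and 32140160 in winter. The winter library of bear 1509 was the shallowest. Levels are given as CPM, a gene's counts relative to all counts of its library after TMM scaling, or as log2 CPM. Seasonal differences are log2 fold changes of winter over summer with their standard error, from a fit across all genes with season as its term. The standard error was derived as the size of the log2 fold change over the square root of the fit's F statistic. It does not use the pairing by bear. Because gene lengths were not at hand, levels are compared between libraries and not between genes.

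ANKRD1 showed the widest seasonal difference of the group. In summer its libraries ran from 11.4 CPM, with a median of 30.3, to 83.5. In winter they ran from 284 CPM, with a median of 681, to 2005. The lowest winter library, that of bear 1509, lay above the highest summer library, that of bear 1512, so the seasons did not overlap. In raw reads this was 260 to 2134 per library in summer and 5145 to 43457 in winter, and its share of all counted reads went from at most 0.00843% to as much as 0.185%. The log2 fold change was 4.64 (standard error, SE, 0.58), a 24.9-fold higher level in winter. All bears moved the same way (6 of 6), from 3.20 in bear 1512 to 6.36 in bear 1317 on the log2 scale. Of the 680 genes with a mean log2 CPM at least that of ANKRD1, itself included, 0 had a larger fitted rise and the next stood at 2.73, while 80 of all genes, those below that mean, had a larger one. These ranks come from the same contrast that chose the gene and are descriptions.

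**Figure D1:**
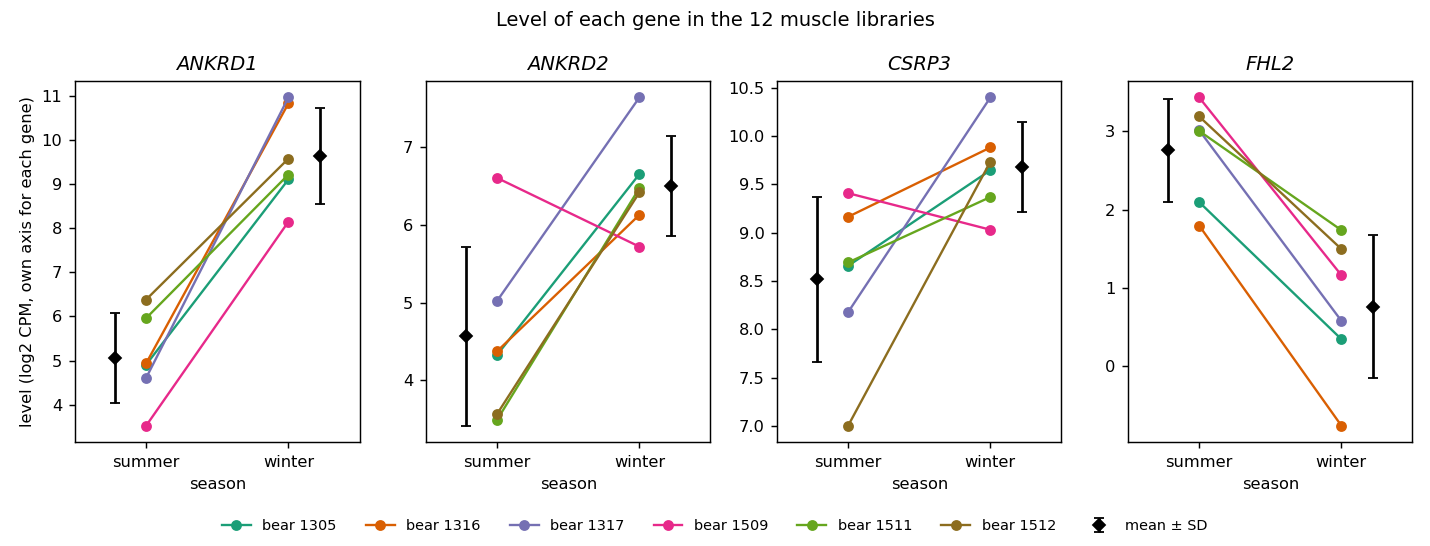
Level of ANKRD1, ANKRD2, CSRP3 and FHL2 (log2 CPM, own vertical axis per gene) in summer and winter, with 1 coloured line per bear and black diamonds for the mean with its SD over 6 bears. ANKRD1 rose and FHL2 fell along every line, and the winter libraries of ANKRD1 begin at 284 CPM, above the summer maximum of 83.5 CPM. The line of bear 1509 alone slopes down for ANKRD2 and CSRP3.

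ANKRD2 was also higher in winter in most bears. It ran from 11.2 CPM, with a median of 20.3, to 97.1 in summer and from 52.6 CPM, with a median of 87.0, to 199 in winter. The summer library of bear 1509 was the high one, at 97.1 CPM against 11.2 to 32.4 in the other bears, and it overlapped the winter range. The log2 fold change was 1.63 (SE 0.50), or 3.09-fold. The level was higher in winter in 5 of 6 bears, by 1.75 to 2.98 on the log2 scale. In bear 1509 it fell by 0.88 on that scale, from 97.1 to 52.6 CPM. Without that bear the log2 fold change was 2.51, or 5.71-fold, and with the bear as a block it was 2.04. Its mean log2 CPM was 4.57 ± 1.15 over the summer libraries and 6.50 ± 0.64 over the winter ones (SD over 6 bears).

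ANKRD23, the third ankyrin-repeat member, was not analysed, because the table used here has no row under its symbol. In RefSeq's annotation of another brown bear assembly, UrsArc2.0, the genes follow each other in the order SEMA4C, ANKRD39, ANKRD23, CNNM3, and the other 3 are listed in the counts. The row named ANKRD39 was looked at for this reason, after its values had been seen. It held 23593 to 39868 reads in summer and 18260 to 62058 in winter. Its level ran from 1025 CPM, with a median of 1427, to 1751 in summer and from 1008 CPM, with a median of 1860, to 2580 in winter, with wide overlap. The log2 fold change was 0.43 (SE 0.21), and 4 of 6 bears were higher in winter. Bear 1509 again went furthest down, by 0.80 on the log2 scale. Whether the gene model behind that row also took up reads of ANKRD23 was not tested, so its values are assigned to neither gene here.

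CSRP3 was higher in winter in most bears. Summer libraries ran from 128 CPM, with a median of 409, to 680, and winter libraries from 523 CPM, with a median of 827, to 1352. The seasons overlapped between 523 and 680 CPM. The log2 fold change was 1.04 (SE 0.33), or 2.06-fold, with 5 of 6 bears higher. The increases lay between 0.68 in bear 1511 and 2.73 in bear 1512 on the log2 scale, and bear 1512 had the lowest summer library. In bear 1509 CSRP3 fell by 0.38, from 680 to 523 CPM, so the same animal departed from the others for ANKRD2 and CSRP3 but not for ANKRD1, which rose there by 4.63.

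Because ANKRD2 and CSRP3 are typical of slow fibres, fibre type genes are given beside them. The summed level of 9 measured slow fibre genes (among them MYL2, MYL3, TNNT1, TNNI1 and TNNC1) was 12290 to 25035 CPM in summer and 14829 to 22598 CPM in winter. In bear 1509 it went from 20867 to 15737 CPM, and in bear 1305 from 25035 to 20312 CPM. It was higher in winter in bear 1316 (12290 to 14829 CPM) and bear 1317 (18223 to 22598 CPM). The same held for bear 1511 (14719 to 20983 CPM) and bear 1512 (14368 to 14845 CPM). ANKRD2 and CSRP3 were higher in winter in all of these bears but bear 1509. Of the 9 genes 1 was called higher, MYL6B (log2 fold change 2.64, SE 0.45, adjusted p = 0.000537), a light chain of slow and embryonic muscle, and 1 lower, ATP2A2 (−0.67, SE 0.20, adjusted p = 0.0144), the slow fibre calcium pump. Each direction held 11.1% of the list, where 19.6% of all genes were called higher and 19.9% lower. The median of the list was 0.08, against −0.0021 over all genes tested. ATP2A2 was not called without bear 1305 or bear 1317 (adjusted p = 0.0575 and 0.0602). Of the 8 fast fibre genes measured 0 were called higher, with 0 at an unadjusted p below 0.05 in edgeR and 0 in DESeq2. The 2 called lower were ATP2A1 (−0.53, adjusted p = 0.00474), the fast calcium pump, and CASQ1 (−0.39, adjusted p = 0.0219), the calcium store protein, and without bear 1316 CASQ1 was not called (adjusted p = 0.0829). Their summed level was 36113 to 74847 CPM in summer and 43751 to 53164 CPM in winter. The part of fibre composition in the ANKRD2 and CSRP3 values was not tested. MYH7 and TPM3 of the slow list, and MYH1, MYH2, MYH4 and MYL1 of the fast list, were not analysed.

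FHL2 went the other way. Its summer libraries ran from 3.39 CPM, with a median of 7.97, to 10.7, and its winter libraries from 0.504 CPM, with a median of 1.78, to 3.25. The highest winter library, that of bear 1511, lay just under the lowest summer library, that of bear 1316, so the seasons did not overlap. These were small counts, 71 to 244 reads per library in summer and 12 to 84 in winter. The log2 fold change was −1.95 (SE 0.39), a 3.86-fold lower level in winter, and 6 of 6 bears were lower. The bears lay between −2.56 in bear 1316 and −1.27 in bear 1511 on the log2 scale.

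**Figure D2:**
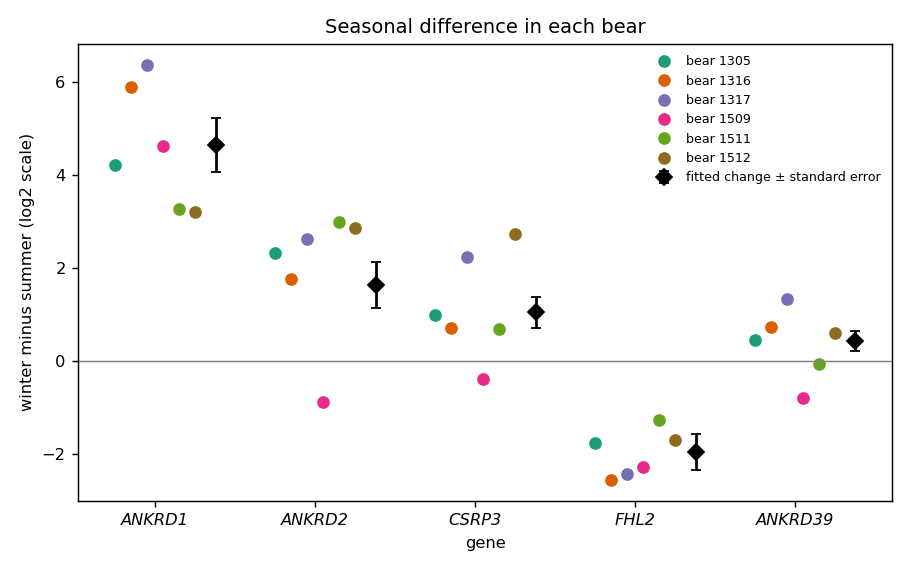
Winter minus summer difference in log2 CPM in each of the 6 bears (coloured points) for ANKRD1, ANKRD2, CSRP3, FHL2 and the neighbouring row ANKRD39, with the fitted log2 fold change and its SE as a black diamond. ANKRD1 lies between 3.20 and 6.36 and FHL2 between −2.56 and −1.27, and bear 1509 lies below 0 for ANKRD2, CSRP3 and ANKRD39.

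Because FHL2 is also found in smooth muscle and stromal cells, markers of cells other than muscle fibres are given beside it. The 8 smooth muscle and pericyte markers summed to 563 to 653 CPM in summer and 287 to 367 CPM in winter, without overlap, and 3 of 8 were called lower and 0 higher (4 and 0 in DESeq2, 6 and 0 at an unadjusted p below 0.05). Pericyte RGS5 and smooth muscle CNN1 and LMOD1 were the 3 called. RGS5 contributed most to the sum, with a mean log2 CPM of 8.35 in summer and 6.94 in winter. MYH11, ACTA2, TAGLN, PDGFRB and NOTCH3 were not called in edgeR (log2 fold changes −0.48 to −0.34). Beside this and the next marker lists, 19.9% of all genes were called lower and 19.6% higher. The 8 fibroblast markers summed to 4237 to 11361 CPM in summer and 279 to 1660 CPM in winter, with 6 called lower and 0 higher (6 and 0 in DESeq2, 8 and 0 at an unadjusted p below 0.05). The collagen genes COL1A1 (log2 fold change −4.59), COL3A1 (−4.17) and COL1A2 (−3.74) contributed most to the summer sum. The 2 fibroblast markers not called were DCN (−0.75, adjusted p = 0.0848) and PDGFRA (−0.49, adjusted p = 0.0772). Endothelial markers were lower for 5 of 6 and higher for 0 (5 and 0 both in DESeq2 and at an unadjusted p below 0.05), summing to 606 to 941 CPM in summer and 396 to 472 CPM in winter. Macrophage markers were lower for 4 of 6 and higher for 0 (4 and 0 in DESeq2, 5 and 0 at an unadjusted p below 0.05), summing to 85.9 to 134 CPM in summer and 38.7 to 74.9 CPM in winter. Of the 4 adipocyte markers 1 was called higher, LEP at 0 to 19 reads per library, and their sum ran from 16.4 to 486 CPM in summer and from 8.27 to 183 CPM in winter. The part of these cells in the FHL2 values was not tested. Without bear 1509, 3 smooth muscle, 6 fibroblast, 4 endothelial and 3 macrophage markers were lower, in a fit that called 6495 of 16764 genes.

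**Figure D3:**
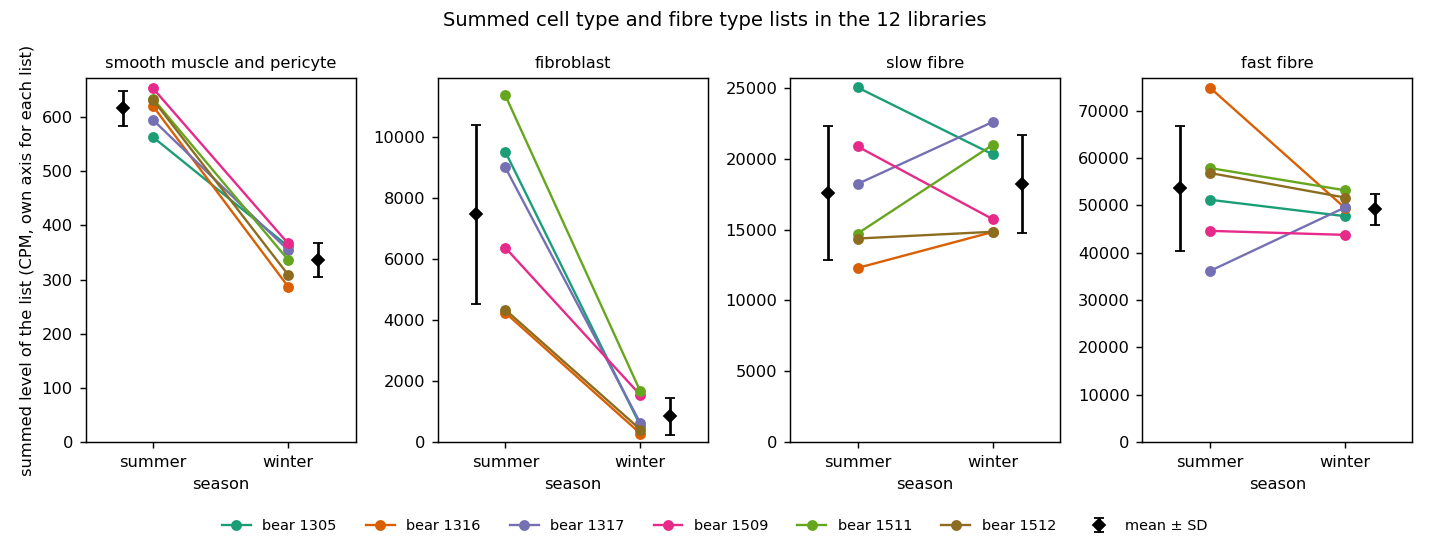
Summed level in CPM (own vertical axis per list, each starting at 0) of the smooth muscle and pericyte, fibroblast, slow fibre and fast fibre lists in the 12 libraries, with 1 coloured line per bear and black diamonds for the mean with its SD over 6 bears. The sums of the first pair of lists fall in every bear, from 563 to 653 down to 287 to 367 CPM for smooth muscle and pericyte genes, while the fibre lists overlap between seasons. RGS5 contributes most to the smooth muscle and pericyte sum, and COL1A1, COL1A2 and COL3A1 to the summer fibroblast sum.

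The tissue label was checked against 10 skeletal muscle markers, which summed to 125838 to 220214 CPM in summer and 139734 to 181365 CPM in winter. Among them, 2 were called higher and 3 lower in winter, MB, ACTA1 and ACTN2 being lower and TTN and NEB higher. The shares of all genes were 19.6% higher and 19.9% lower. Of the heart markers, NPPA, NPPB, MYBPC3 and MYL7 had fewer than 30 reads over all libraries, MYH6 and TNNI3 were not analysed, and MYL4, also expressed in immature skeletal muscle, had 14 to 543 reads per library and was not called (log2 fold change 1.07, adjusted p = 0.305).

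At an adjusted p below 0.05 the fit called 4 of the 4 measured members, 3 higher and 1 lower in winter, where 39.5% of all genes were called, 19.6% higher and 19.9% lower. ANKRD1 was the 1 member higher without overlap between seasons, as were 9.12% of all genes, and FHL2 the 1 lower without overlap, as were 8.21%. The members were picked from this contrast, so nothing is read from these counts. Without bear 1305 or bear 1317 the count was 2, ANKRD1 and FHL2, and in those fits the folds of ANKRD2 were 2.83 and 2.47 and those of CSRP3 2.05 and 1.72. Fewer genes of any kind were called there, 5256 of 16860 and 5631 of 16960, against 6831 of 17290 with all bears.

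Taken within a library, where scaling cancels, the members changed by unequal amounts. The ratio of ANKRD1 to ANKRD2 was higher in winter by 2.65 ± 2.15 on the log2 scale (SD, n = 6 bears), with bears from 0.28 to 5.51. The ratio of ANKRD1 to CSRP3 was higher by 3.43 ± 1.77, from 0.46 to 5.18. The ratio of ANKRD2 to CSRP3 differed by less than its spread, at 0.78 ± 0.99, with bears from −0.51 to 2.30. In summer ANKRD1 was highest in bear 1512 and lowest in bear 1509, while CSRP3 was lowest in bear 1512 and highest in bear 1509.

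Variation between bears inside a season was not used to choose the members, and it was tested for all 6 pairs in each season, 12 relations in all. In summer the bears with more ANKRD1 had less ANKRD2. Pearson's r was −0.95 (exact permutation p = 0.00556, 0.0667 after Benjamini-Hochberg adjustment over the 12, n = 6 bears) and Spearman's rho −0.89 (exact permutation p = 0.0333, adjusted 0.2). Leaving out bears 1509 and 1512, the 2 farthest from the ANKRD1 median, r was −0.96. In winter the same pair gave r = 0.62 (exact permutation p = 0.188, adjusted 0.407) and rho = 0.43 (exact permutation p = 0.419, adjusted 0.719), and 0.85 for r without bears 1316 and 1317. The difference between the seasons was not tested.

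In winter the bears with more ANKRD1 had more CSRP3. The r was 0.92 (exact permutation p = 0.0167, adjusted 0.1, n = 6 bears) and rho 0.94 (exact permutation p = 0.0167, adjusted 0.2), and r was 0.90 without bears 1316 and 1317. In summer that pair had r = −0.73 (exact permutation p = 0.106, adjusted 0.317) and rho = −0.49 (exact permutation p = 0.356, adjusted 0.719), and without bears 1509 and 1512 r was 0.26, so the summer value rested on those bears. ANKRD2 with CSRP3 gave r = 0.83 in winter (exact permutation p = 0.0611, adjusted 0.244) with rho = 0.49 (exact permutation p = 0.356, adjusted 0.719), but −0.59 for r without bears 1317 and 1509. None of the 12 relations passed the adjustment, and the 3 that involve FHL2 in each season had adjusted exact permutation p values of 0.407 or more for r.

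**Figure D4:**
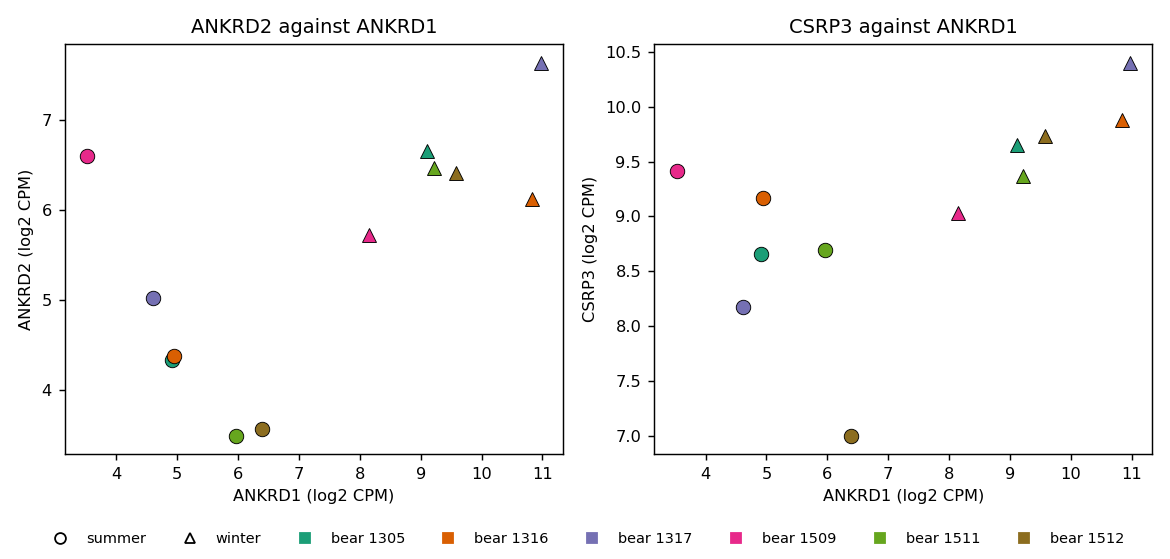
ANKRD2 (left) and CSRP3 (right) against ANKRD1, all in log2 CPM, with circles for the 6 summer libraries, triangles for the 6 winter libraries and 1 colour per bear. In summer ANKRD2 falls as ANKRD1 rises (r = −0.95), and in winter CSRP3 rises with ANKRD1 (r = 0.92). Neither relation passed the adjustment over the 12 tested (exact permutation, adjusted p = 0.0667 and 0.1, n = 6 bears).

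The genes that varied most like each member were looked up over the 12 libraries after each season's mean was subtracted, among 10344 other genes with a symbol and a mean of at least 1 log2 CPM. These values are descriptions over libraries that share depth and scaling, and no p is given for them. LYSMD4 (r = 0.88), PRRC1 (0.86) and TGFB2 (0.86) were most like ANKRD1. For ANKRD2 they were ICAM2 (0.86), FITM2 (0.86) and SLC8B1 (0.85), and for CSRP3 UNC50 (0.91), PML (0.90) and MFSD13A (0.87). LIMA1 (0.90), KYAT1 (0.87) and RPP38 (0.87) were most like FHL2. Between members themselves the values ran from −0.36 for ANKRD1 with FHL2 to 0.64 for ANKRD2 with CSRP3. The named genes are the highest of 10344 for each member, so the member pairs cannot be compared with them.

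Of 11 measured LIM-domain relatives of CSRP3 and FHL2, 5 were called lower in winter and 1 higher, with a median log2 fold change of −0.41. That was 45.5% lower and 9.09% higher, where 19.9% of all genes were called lower and 19.6% higher. CSRP2, the smooth muscle and stromal paralog of CSRP3, was at −1.67 (SE 0.21, adjusted p = 6.26e-05), CRIP2, a vascular LIM protein, at −1.62 (SE 0.24, adjusted p = 0.000179) and CRIP3 at −1.10 (SE 0.40, adjusted p = 0.0396). CSRP2 and CRIP2 were lower in 6 of 6 bears. LIMS1, the PINCH adaptor of integrin adhesions, rose by 0.81 (SE 0.13, adjusted p = 0.000322) in 6 of 6 bears. FHL1, the main FHL protein of skeletal muscle, stood at 0.01 (SE 0.16, adjusted p = 0.959) from 77318 or more reads in each library, and FHL3 at −0.39 (adjusted p = 0.207). The number called lower was 3 without bear 1305, bear 1316 or bear 1509, and without bear 1509 2 were called higher. Those 3 fits called 5256 of 16860, 5655 of 16912 and 6495 of 16764 genes in all, against 6831 of 17290 with all bears. CRIP3, at 3 to 43 reads per library, was not called without bear 1305, 1317, 1509 or 1512 (adjusted p = 0.0665 to 0.111).

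Of 14 measured genes of titin and its I-band partners, 2 were called higher and 2 lower, with a median of −0.12. That was 14.3% in each direction, where 19.6% of all genes were called higher and 19.9% lower. TTN, titin itself, was at 0.65 (SE 0.15, adjusted p = 0.0036) and SMYD2, a methyltransferase that with HSP90 binds the N2A region, at 0.75 (SE 0.16, adjusted p = 0.00242), each higher in 6 of 6 bears. HSPB1, a small heat shock protein that binds titin's spring, fell by 2.18 (SE 0.28, adjusted p = 6.66e-05) and TRIM55, a ligase at the M-band, fell by 0.59 (SE 0.15, adjusted p = 0.00687), and 6 of 6 bears were lower for each. CAPN3, the protease anchored at N2A, was at −0.24 (adjusted p = 0.0982) and MYPN, the Z-disc and I-band partner of ANKRD1, at 0.24 (adjusted p = 0.254). With library totals in place of TMM 4 genes were called lower.

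Of 27 genes of the Z-disc, where CSRP3 is anchored, and of adhesions at the membrane, 9 were called lower and 2 higher, with a median of −0.23. Among those called lower, ILK, TLN2 and ITGB1BP2 belong to the adhesions. These were 33.3% and 7.41% of the list, against 19.9% and 19.6% of all genes. TCAP, the telethonin that binds CSRP3, fell by 1.58 (SE 0.21, adjusted p = 8.78e-05), MYOZ3, a calsarcin, fell by 1.17 (SE 0.13, adjusted p = 2.59e-05) and ILK, the integrin-linked kinase, fell by 1.03 (SE 0.14, adjusted p = 8.41e-05). PDLIM3, an alpha-actinin binding LIM protein, was 3.02-fold higher (SE 0.22 on the log2 scale, adjusted p = 0.000107), and NRAP, which carries a LIM domain and binds actin where myofibrils meet the membrane, rose by 1.45 (SE 0.19, adjusted p = 9.22e-05). For these 5 genes, named as the largest changes called in the list, 6 of 6 bears moved alike and the seasons did not overlap. Of all genes, 9.12% were higher and 8.21% lower without overlap. With the bear as a replicate block 4 genes were called higher in edgeR and 5 in DESeq2.

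Among 24 genes of stretch-responsive transcription, chosen around the YAP and TEAD factors and the MRTF and SRF factors, 7 were called lower and 4 higher. These were 29.2% and 16.7% of the list, against 19.9% and 19.6% of all genes, and the median was −0.05. YAP1 (0.69, adjusted p = 0.000986), TEAD3 (0.68, adjusted p = 0.015) and AJUBA (0.56, adjusted p = 0.0123), a LIM protein that restrains the LATS kinases, were the largest rises. CTGF (−1.31, adjusted p = 0.0108), the matricellular YAP target, VGLL3 (−1.08, adjusted p = 0.00114), a TEAD cofactor, and MRTFA (−0.95, adjusted p = 0.000286), the actin-regulated SRF cofactor, were the largest falls. CTGF, like ANKRD1 a usual reporter of YAP activity, was lower in 6 of 6 bears, and CYR61, another, was at −0.06 (SE 0.53, adjusted p = 0.943). SRF was at 0.10 (adjusted p = 0.493). The number called higher was 2 without bear 1305, 2 without bear 1316 and 1 without bear 1317. In these fits 5256 of 16860, 5655 of 16912 and 5631 of 16960 genes were called in all, against 6831 of 17290 with all bears. TEAD3 was not called without bear 1305 or bear 1317 (adjusted p = 0.0669 and 0.0545), nor AJUBA without bear 1316 or bear 1317 (0.0573 and 0.0531).

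**Figure D5:**
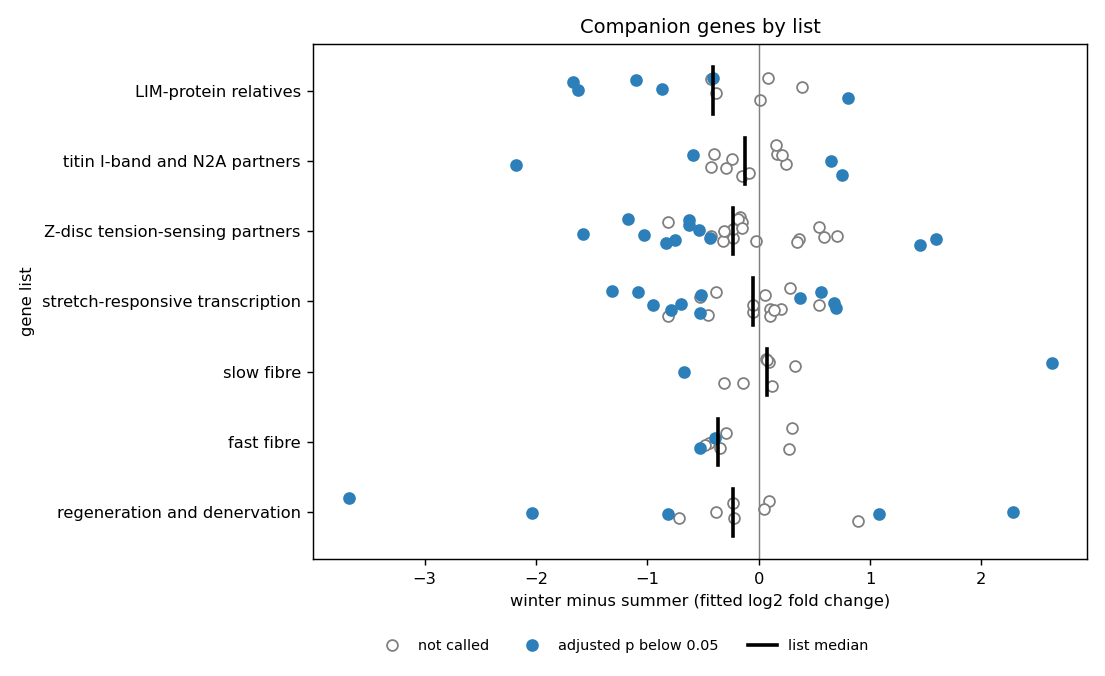
Fitted log2 fold change of winter over summer for each measured gene of the 7 companion lists, with filled points for genes called at an adjusted p below 0.05, open points for the others and a black bar at the list median. List medians lie between −0.41 for the LIM-protein relatives and 0.08 for the slow fibre genes.

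ANKRD1 is also known from denervated and regenerating muscle, so 12 measured genes of those states were read beside it. Of these, 2 were called higher (16.7%) and 3 lower (25%), against 19.6% and 19.9% of all genes, with a median of −0.23. CHRNG, the fetal subunit of the acetylcholine receptor, was at 2.29 (SE 0.58, adjusted p = 0.00699). Its libraries held 10 to 30 reads in summer and 8 to 193 in winter, and 5 of 6 bears were higher. Its winter level was 4.88-fold the summer level with all bears and 3.02-fold without bear 1317. GADD45A, a stress and denervation gene, rose by 1.08 (SE 0.25, adjusted p = 0.00395) in 6 of 6 bears. MYF5 (−2.04, adjusted p = 0.000122) and PAX7 (−0.81, adjusted p = 0.0298) mark satellite cells, and MYMX, the fusion peptide, went from 4 to 15 reads per library in summer to 0 to 2 in winter (adjusted p = 0.000534). PAX7 was lower in 5 of 6 bears and was not called without bear 1305, 1509, 1511 or 1512 (adjusted p = 0.0639 to 0.0969), nor in DESeq2 with the bear as a block (adjusted p = 0.0883). Denervation genes CHRNA1 (−0.23, adjusted p = 0.638), MYOG (−0.22, adjusted p = 0.563) and RUNX1 (0.09, adjusted p = 0.726) were not called. Summed, the list stood at 59.2 to 107 CPM in summer and 72.0 to 112 CPM in winter.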

How the data were processed

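Vastus lateralis RNA from 6 bears, 1 biopsy per season, was sequenced as stranded poly-A libraries (single-end). The authors aligned the reads to ASM358476v1 with TopHat2 2.1.1, counted reads on the gene's strand with featureCounts 1.6.2 and deposited the raw counts, with no filter or scaling. The labels do not assign sequencing lanes, so a lane effect was not tested.

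The members and lists were chosen with earlier results of these data known, so no p is given for the seasonal difference of a member. The same limit holds for the lists, so the adjusted p values of their genes are descriptions of this contrast. From the counts, genes under 30 reads in total were removed, TMM factors were computed, and edgeR 4.0.16 (glmQLFit, glmQLFTest, R 4.3.3) was fitted on season over 17290 genes, with Benjamini-Hochberg adjustment over them and calls at an adjusted p below 0.05. Log2 CPM used a prior count of 2. Adjusted p values come from this fit, and correlations were tested by exact permutation, two-sided. Genes named from the lists are the 3 largest rises and 3 largest falls called in each, and for each member the 3 genes most like it over the libraries; FHL1, FHL3, CAPN3, MYPN, CYR61, SRF, CHRNA1, MYOG, RUNX1 and single markers were named after their values were seen. Alternatives were RLE factors, library totals, no filter, filterByExpr, DESeq2 1.42.0, limma 3.58.1 (voom), the bear as a replicate block, each bear left out, a stricter threshold and a prior count of 0.5. The fits were tested on simulated data. No library copied another of its season (lowest chi-square per gene 30.2).

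The numbers pair the libraries because the study's methods state that each bear was sampled in both seasons. After subtracting each season mean, log2 levels correlated at 0.0903 to 0.344 within a bear, against a median of −0.0634 between different bears. The highest value between different bears was 0.142, so the ranges overlapped. For 5 of 6 bears the summer library correlated best with the winter library of the same bear.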

Additional observations from a re-analysis of the deposited data

Results flagged for a closer look

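Levels of the members and of the genes named from the lists were examined for a library far from the other 5 of its season, in 66 groups of 6, and 3 were found, where chance gives about 1 in 20. The rule found none among ANKRD1, ANKRD2, CSRP3 and FHL2. In the winter library of bear 1509, HSPB1 lay at 3.03 log2 CPM against 3.87 to 4.19 in the other winter libraries. In the same library ATP2A2 lay at 11.06 log2 CPM against 10.45 to 10.66. In the winter library of bear 1511, TCAP lay at 10.02 log2 CPM against 9.09 to 9.42.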

How the results depend on the processing

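The log2 fold changes of the 4 members kept their direction under all 14 alternatives each, and moved by less than the SD between bears. Leaving out a bear gave 4.21 to 5.05 for ANKRD1, 1.31 to 2.51 for ANKRD2, 0.78 to 1.36 for CSRP3 and −2.13 to −1.84 for FHL2, and 2 to 4 members were called. These fits with a bear left out called 5256 to 6495 genes in all, against 6831 with all bears. The 12 correlations kept their sign and stayed above the threshold under both other scalings and the other prior count, but r changed sign in 6 of the 12 without the 2 bears farthest from the median. Among the lists, leaving out a bear gave 3 to 5 LIM-domain relatives lower and 1 to 2 higher, 1 to 4 stretch-responsive transcription genes higher, 0 to 1 slow fibre genes lower and 1 to 3 fast fibre genes lower. The stricter threshold (adjusted p below 0.01, fold above 1.3 or below 0.77) called 2 relatives lower, 1 transcription gene higher, 1 fast fibre gene lower and 0 slow fibre genes lower by edgeR (1 slow fibre gene was lower in DESeq2 at 0.05, and 1 before adjustment). At that threshold 24% of all genes were called in either direction, against 39.5% at an adjusted p below 0.05. With library totals 4 titin partners were lower. In the fits that take the bear as a replicate block, 4 genes of the Z-disc and adhesion list were higher in edgeR and 5 in DESeq2. The block moved no other list count by over 1.5 times and left 4 of 4 members called. For single named genes 375 alternative fits kept call and direction, and 16 kept the direction but not the call. FHL2 rested on 12 to 244 reads per library.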
